A study of Mus musculus with 6 samples.

Results

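Tandem 3′ splice sites 3 nt apart are pairs of splice acceptors so close that the spliced mRNA either keeps or loses exactly 3 nt. They were taken from the alternative 3′ splice site events of the splicing table as those whose long exon was 3 nt longer than the short exon. This gave 705 of 3525 alternative 3′ splice site events, among 40961 events of all 5 types. The 705 events fell on 673 pairs of acceptors in 620 genes, and 31 pairs were listed more than once, with another donor or exon end. No other distance was as frequent among the short gaps, since 15 events had acceptors 2 nt apart, 118 had them 4 nt apart, 93 had them 5 nt apart and 62 had them 6 nt apart.

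RNA came from the hippocampus of 3 control libraries and 3 libraries labelled L-DL KD. The mice were male C57BL/6 J mice, wild type apart from the virus, that received adeno-associated virus into CA1 of both hippocampi at 8 weeks of age. Controls received a virus with a control shRNA. The others received a virus with 4 tandem shRNAs, each under an H1 promoter, against L-DL, the longer form of the hnRNP D-like protein, an RNA-binding protein of nuclear speckles. The H1 promoter is active in all cell types, the vector also held zsGreen under the CamkIIα promoter, and the control virus was given at a higher titre than the L-DL virus. The labels call the second group KD in the title but hnRNP DL-/- in the description, and they do not state that each library is 1 animal, so the p-values measure the spread between these libraries, which may be technical. Gene counts of Hnrnpdl, which do not separate its long form from its short form, did not pass the test between the groups. They stood at 176, 184 and 171 CPM (counts scaled to a common library size) in the controls and at 217, 150 and 173 CPM in the others. The log2 fold change was 0.03 ± 0.12 (SE, edgeR adjusted p = 0.898). The paper reports less L-DL protein in the injected hippocampus by immunoblot, which gene counts do not measure. The second group is called "labelled L-DL KD" throughout. Gene counts per library summed to between 16052529 and 17913064, and junction counts of the tandem acceptors to between 65624 and 80741.

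The last bases of nearly all introns spell an AG, and the second step of splicing joins the upstream exon to the base that follows it. Where a second AG follows after a single further base, in the pattern NAGNAG (N is any base), the spliceosome can cut after either. Use of the first, intron-proximal acceptor leaves the second NAG in the mRNA, and use of the second, distal acceptor removes it. The reading frame is kept either way, so in a coding exon the proteins differ by the gain or loss of a single amino acid, or by an exchange around the junction. PSI (percent spliced in, here from 0 to 1) is the share of junction reads, scaled by the effective length of each form, that used the intron-proximal acceptor.

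Both forms of 669 pairs were in the GENCODE M21 annotation (GRCm38), and the 3 nt could be read from a transcript of the long form for 670. In 667 of them the 3 nt ended in AG. CAG was the most frequent with 477 pairs (71.2%), before AAG with 109 (16.3%), TAG with 68 (10.1%) and GAG with 13 (1.94%). The distal acceptor of the other alternative 3′ splice sites, read for 2621 of 2639 pairs, was CAG in 73.0%, AAG in 9.27%, TAG in 16.1% and GAG in 1.45%. AAG was thus the second most frequent triplet among the tandem acceptors and TAG the second most frequent elsewhere. The end of the intron could be read only where an annotated transcript retained the intron, for 112 pairs, of which 111 had the form NAGNAG.

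The following acceptors show what the pairs look like in the intron and cover the range from near full use of the first NAG to almost none. Each run is 5′ to 3′ on the strand of the gene and holds 18 bases of the intron, the NAGNAG in capitals and 6 bases of the exon. They were read from GENCODE M21 transcripts and chosen by their hexamer after values were seen, except Fau, Srsf5 and Ing4, which fell under the naming rules, and Rbm5, shown for its unadjusted p. Positions in GRCm38 are those of the second NAG. They are chr2:178328138-178328140 (plus) for Phactr3, chr5:115242059-115242061 (minus) for Rnf10, chr17:29705321-29705323 (minus) for Ccdc167, chr19:6058243-6058245 (plus) for Fau, chr9:107749797-107749799 (minus) for Rbm5, chr8:123403147-123403149 (plus) for Tcf25, chr2:23099562-23099564 (plus) for Acbd5, chr10:81121043-81121045 (plus) for Map2k2, chr12:80949717-80949719 (plus) for Srsf5, chr6:125047479-125047481 (plus) for Ing4, chr11:94092812-94092814 (plus) for Spag9 and chr2:160761736-160761738 (plus) for Plcg1.
Phactr3: aatcttagtgtttttccgCAGAAGgctgag
Rnf10: gcactctctgtttcccctCAGAAGacagag
Ccdc167: ctgtaaactccttccccaCAGGAGgtctct
Fau: cacaagcctttcttccttCAGTAGccaaca
Rbm5: ggctgcattttgtttttgCAGCAGtacctg
Tcf25: catcctgcctcttcctttCAGCAGctgtaa
Acbd5: atttactttactctcttaAAGTAGggaata
Map2k2: tgtgttctttgtactgtcAAGTAGgtcatg
Srsf5: cttcttgccaatttttcaTAGCAGgtcaag
Ing4: cggcttaccctttcttccTAGAAGgccgga
Spag9: tccctgccctctgcctctGAGAAGctgtgg
Plcg1: ttgtgcacttcccttgctGAGCAGgagaac

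In the controls the mean PSI of these pairs was 0.993 ± 0.00988 for Phactr3, 0.873 ± 0.0190 for Rnf10, 0.965 ± 0.00400 for Ccdc167 and 0.915 ± 0.00410 for Fau (SD, n = 3 libraries, as for the pairs that follow). It was 0.920 ± 0.0228 for Rbm5 and 0.552 ± 0.0104 for Tcf25, although both hold CAGCAG. The same hexamer therefore went with unlike use of the first acceptor. Where AAG came first, PSI was 0.529 ± 0.0278 in Acbd5 and 0.240 ± 0.0178 in Map2k2, and where TAG came first it was 0.167 ± 0.00297 in Srsf5 and 0.0855 ± 0.0156 in Ing4. Acbd5 was the highest and Srsf5 and Ing4 were the lowest of their hexamers. Among pairs with a mean of at least 20 counts, AAGTAG ran from 0.0749 to 0.529, TAGCAG from 0.167 to 0.909 and TAGAAG from 0.0855 to 0.975. With GAG first, the first acceptor was hardly used: Spag9 had 0 to 2 junction reads a library on it against 112 to 183 on the second, and Plcg1 had 0 to 3 against 115 to 166.

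Of the 673 pairs, 604 lay in coding sequence, 35 in a 5′ UTR, 6 in a 3′ UTR and 25 in a non-coding transcript, while 3 matched no transcript of the long form. Among the coding pairs, the 3 nt began at a codon boundary in 212, after the first base of a codon in 255 and after the second in 123, and for 14 this could not be set. At a codon boundary the 3 nt are a codon of their own, glutamine for the 172 CAG pairs, lysine for the 32 AAG pairs and glutamic acid for the 6 GAG pairs. TAG would be a stop codon there, and 0 coding pairs had it at a codon boundary, while 37 had it after the first base and 17 after the second base of a codon. That 0 is set in part by the annotation, since an in-frame stop ends the coding sequence. The introns before the tandem acceptors had a median length of 1283 nt, against 826 nt for the other alternative 3′ splice sites, and the long exons a median of 128 nt against 174 nt.

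Both acceptors of most pairs were in use at once. Over the 508 pairs with a mean of at least 20 junction counts a library, mean control PSI had a median of 0.653 and quartiles of 0.369 and 0.864. A PSI between 0.1 and 0.9 was found in 369 pairs (72.6%), under 0.1 in 30 and over 0.9 in 109. Acceptors 4 to 12 nt apart gave a median of 0.953 over 326 pairs, 25.5% of them between 0.1 and 0.9. Acceptors over 12 nt apart gave a median of 0.772 over 1769 pairs, 30.4% of them in that range. These shares describe the pairs in the table and were not tested, since the pairs are not replicates.

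**Figure D1:**
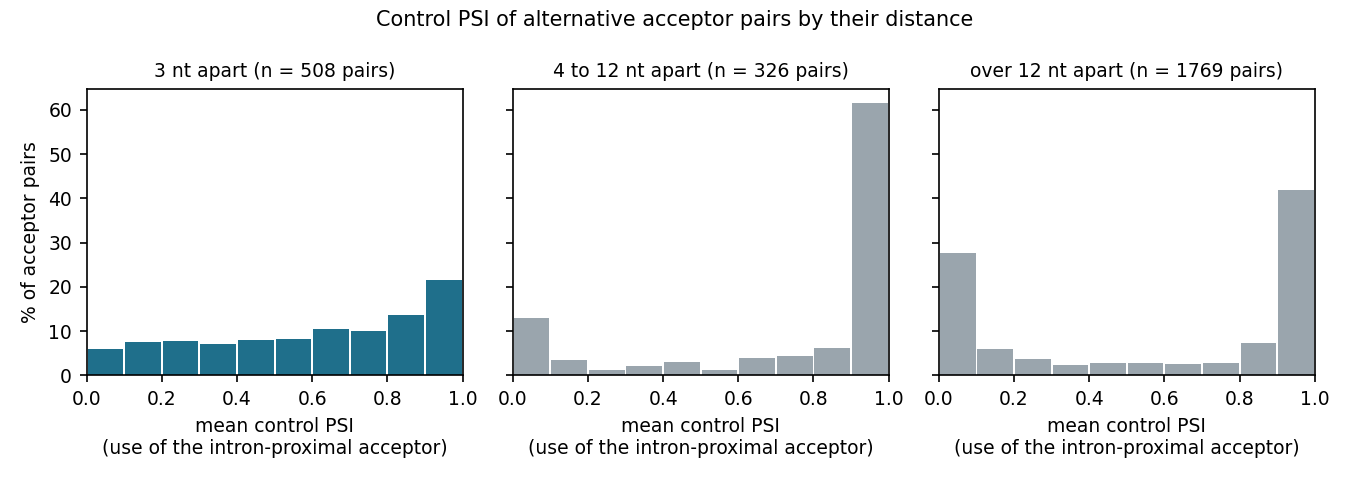
Distribution of mean control PSI (x axis, bins of width 0.1) as the percentage of acceptor pairs (y axis) for pairs 3 nt, 4 to 12 nt and over 12 nt apart with a mean of at least 20 junction counts. Pairs 3 nt apart are spread over the whole range with 21.5% in the top bin, while pairs at the other distances collect in the end bins.

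Use of the first acceptor went with the 3 bases of each acceptor. When the second NAG was GAG, median control PSI was 0.979 (10 pairs), and it was 0.874 for AAG (84 pairs), 0.665 for TAG (49 pairs) and 0.594 for CAG (361 pairs). Quartiles overlapped between AAG, at 0.615 and 0.976, and CAG, at 0.325 and 0.809. When the intron end could be read, the order by the first NAG was the other way around: 0.718 for CAG (57 pairs), 0.444 for TAG (16 pairs), 0.248 for AAG (13 pairs) and 0.00983 for GAG (3 pairs). So a triplet that was often used as the first acceptor was often used as the second as well. The 10 pairs with CAGAAG ran from 0.780 to 0.997, and the 41 with CAGCAG covered 0.0869 to 0.970. The 11 with TAGCAG had a median of 0.346 and the 8 with AAGCAG one of 0.330. Frame made less difference to the level, with medians of 0.646, 0.667 and 0.669 for 3 nt that began at a codon boundary, after the first and after the second base. Place did show lower medians outside the coding sequence, 0.523 over 23 pairs in 5′ UTRs and 0.318 over 14 in non-coding transcripts, against 0.666 over 466 coding pairs.

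Junction counts allowed a test of 481 of the 705 events, on 477 pairs in 440 genes. The other 224 were not tested, 193 for a mean under 20 counts and 31 because a form had a mean under 1 count. Tested events had a median of 73.8 counts a library, from 20.3 to 2417.5, against 95.3 over all tested events of the series. At an adjusted p under 0.05 with edgeR, 0 of the 481 events were called, beside 0.255% of all 18829 tested events, and the lowest adjusted p was 0.181. At an unadjusted p under 0.05 there were 11 (2.29%), beside 13.3% of all tested events, 8.40% of the other alternative 3′ splice sites and 5.93% of those 4 to 12 nt apart. DESeq2 gave 0 adjusted and 12 unadjusted calls (2.49%), beside 112 adjusted calls and 10.6% unadjusted over all tested events. With limma on the log2 ratio of the forms there were 0 and 23 (4.78%), beside 0 adjusted calls and 13.1% unadjusted over all events. The 0 with limma thus does not set the tandem acceptors apart. No tandem acceptor was therefore shown to change, and a p that misses the threshold does not show that use of the acceptors was alike.

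PSI in the 2 groups was close for most pairs. The median size of the difference between the group means was 0.0327, while the median SD among the controls was 0.0522 and counting error alone would give 0.0456. A difference of 0.1 or more was seen in 64 events (13.3%), against 15.6% of all tested events. Spread depended on depth: the median SD among the controls was 0.0811 in the 161 events with fewest counts, 0.0575 in the next 160 and 0.0270 in the 160 with most counts. Across the 481 events the group means correlated with a Pearson r of 0.970, which describes events of the same libraries that are not independent.

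**Figure D2:**
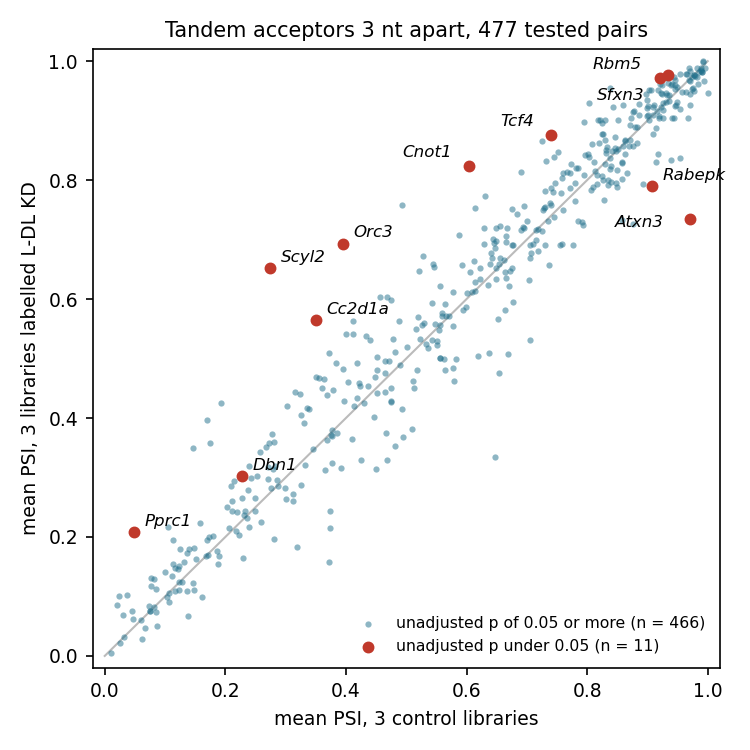
Mean PSI of 3 libraries labelled L-DL KD (y axis) against mean PSI of 3 control libraries (x axis) for the 477 tested pairs, 1 point each, with the line of equal values. Most points lie near the line, and the 11 named pairs with an unadjusted p under 0.05 include 9 above it and 2 below it; none passed the adjusted threshold.

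Small differences leaned towards the first acceptor. PSI was higher in the libraries labelled L-DL KD in 278 events and lower in 203, with a median difference of 0.00828, against -0.00172 over all tested events and 0.00163 over the other alternative 3′ splice sites. All 3 libraries labelled L-DL KD lay above all 3 controls in 36 events (7.48%), beside 7.6% of all tested events, and below them in 14 (2.91%), beside 10.8%. The share above was thus near the background and the share below was under it. Acceptors 4 to 12 nt apart lay above in 8.05% and below in 3.81%, and all other alternative 3′ splice sites in 8.34% and 6.42%. A low share below was therefore not particular to the tandem acceptors. By the second NAG, the groups of CAG pairs lay apart upwards in 32 and downwards in 7 of 351, and those of AAG pairs in 2 and 5 of 71. TAG pairs lay apart in 1 of 45 each way. The median difference was 0.0149 for CAG, -0.00516 for AAG and 0.00820 for TAG. In the same order of depth it was -2.24e-05 in the 161 events with fewest counts, 0.0122 in the next 160 and 0.00741 in the 160 with most counts.

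Summed over the 477 pairs, the first acceptor took 57.8%, 58.4% and 58.0% of junction reads in the controls and 60.2%, 59.6% and 59.3% in those labelled L-DL KD. The groups did not overlap, and the means differed by 1.63 percentage points (58.1% ± 0.316 against 59.7% ± 0.468, SD, n = 3). Part of this sum came from a few genes with many reads. Sparc alone had 676 to 3268 junction counts a library, and without the 10 pairs with most counts the range was 59.95% to 60.3% in the controls and 60.6% to 61.5% in the others, a difference of 1.01 points. CAG pairs ran from 53.2% to 53.8% and from 54.5% to 55.8%. AAG pairs overlapped, with means of 71.8% and 71.1%. TAG pairs had 64.4% to 67.5% in the controls and 69.4% to 71.5% in the others, and their sum also follows which genes gave the reads. Summed reads of the other alternative 3′ splice sites went the other way, from a mean of 56.5% to 53.7%, whereas those 4 to 12 nt apart overlapped at 73.3% and 74.2%. Event by event, the other alternative 3′ splice sites leaned upwards instead, with 856 higher, 763 lower and a median difference of 0.00163. No p is given for these sums, which are scores over chosen events.

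**Figure D3:**
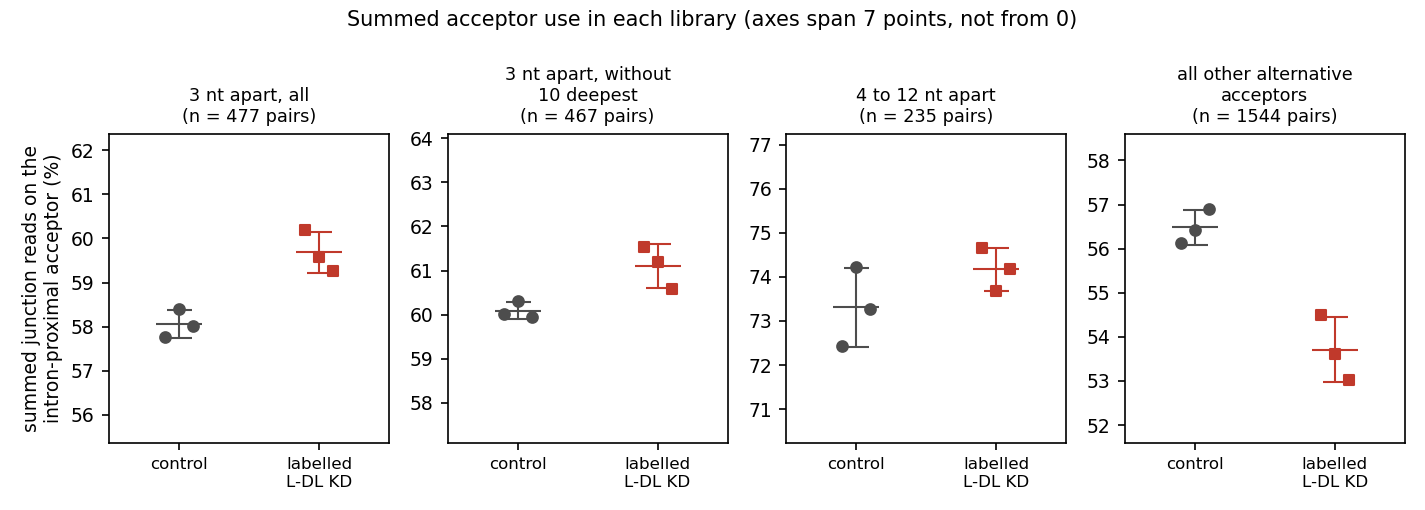
Percentage of summed junction reads on the intron-proximal acceptor (y axis, 7 points in each panel and not from 0) in each library, with the mean and SD of 3. Both panels of pairs 3 nt apart show the libraries labelled L-DL KD above the controls, those 4 to 12 nt apart overlap, and all other alternative acceptors show them below.

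Of the 11 events with an unadjusted p under 0.05, 9 had higher and 2 had lower PSI in those labelled L-DL KD. The largest differences among those whose groups did not overlap were in Orc3, Cnot1, Cc2d1a, Pprc1 and Tcf4, all higher, and in Atxn3, the only lower one. The sequences below are the mRNA across the splice of the long form, with 12 bases on each side and the 3 nt kept or removed in capitals; they show what each choice of acceptor adds. They were read from GENCODE M21 transcripts, and the 3 nt lie in GRCm38 at chr4:34578030-34578032 (minus) for Orc3, chr8:95755109-95755111 (minus) for Cnot1, chr8:84138827-84138829 (minus) for Cc2d1a, chr19:46062141-46062143 (plus) for Pprc1, chr12:101948046-101948048 (minus) for Atxn3 and chr13:55474559-55474561 (minus) for Dbn1, all in coding exons.
Orc3: agaacctcgatgCAGatagcaaagagg
Cnot1: cacagcttccagTAGgtggtcttggca
Cc2d1a: actcctaagaagCAGaatacccctgct
Pprc1: gattttggagagCAGagcagattatct
Atxn3: acatttttacagCAGccttctggaaat
Dbn1: gaggggacccagCAGgccagcgaagga

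Orc3 encodes a subunit of the origin recognition complex, which marks where DNA replication starts. Its PSI was 0.365, 0.455 and 0.365 in the controls and 0.607, 0.722 and 0.751 in the group labelled L-DL KD. All of the latter were higher, so the first acceptor was the minor one in the controls and the major one in the others. The log2 change of the ratio of the forms was 1.80 ± 0.53 (SE), with an adjusted p of 0.181 (0.126 to 0.408 over the alternatives), on 48 to 95 counts a library. The exact permutation test of 3 against 3 libraries gave p = 0.1, the smallest it can give, here and in each other pair whose groups did not overlap. Orc3 also rose in gene counts, by 0.34 ± 0.10 on the log2 scale (adjusted p = 0.0336).

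Atxn3 encodes ataxin-3, a deubiquitinase whose glutamine tract is expanded in a spinocerebellar ataxia. Here the CAG of the pair began at a codon boundary and so codes for glutamine. The bases printed above on either side of it hold no long run of CAG. PSI was 1, 0.965 and 0.948 in the controls and 0.664, 0.856 and 0.687 in those labelled L-DL KD. The second acceptor, with 0 to 2 reads in a control library, had 4 to 9 in the others. Counts were low at 21 to 39 a library, the log2 change of the ratio was -3.43 ± 1.03 (SE) and the adjusted p was 0.195 (0.138 to 0.427 over the alternatives). Gene counts of Atxn3 did not pass the test (adjusted p = 0.670).

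Cnot1 is the scaffold of the CCR4-NOT complex, which shortens poly(A) tails. The 3 nt were TAG after the first base of a codon, so they were not read as a stop. PSI was 0.552, 0.588 and 0.670 in the controls and 0.837, 0.743 and 0.892 in the others (adjusted p = 0.321). Cc2d1a, which encodes a C2 domain protein, had 0.401, 0.399 and 0.252 against 0.488, 0.647 and 0.558 (adjusted p = 0.375). Both pairs had separate groups, on 36 to 62 counts a library for Cnot1 (mean 49.3) and 47 to 87 for Cc2d1a (mean 60.2).

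Pprc1 encodes a coactivator of the PGC-1 family that acts on mitochondrial genes. The first acceptor gave 1, 1 and 2 reads in the controls and 14, 6 and 9 in the libraries labelled L-DL KD, a mean PSI of 0.0488 ± 0.0211 against 0.208 ± 0.0749 (adjusted p = 0.307). Pprc1 rose in gene counts by 0.43 ± 0.07 on the log2 scale (adjusted p = 0.00390). Tcf4 encodes a basic helix-loop-helix transcription factor of neurons. Its pair had PSI of 0.727, 0.701 and 0.791 in the controls and 0.834, 0.898 and 0.897 in the others (adjusted p = 0.249), while a second tandem pair of the gene had means of 0.926 and 0.930. The Tcf4 pairs thus had unlike differences. A second pair of Pprc1 leaned the same way as its first, with means of 0.350 and 0.468 and overlapping groups. Neither contrast was tested.

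The remaining 5 events were chosen after their values were seen. Dbn1, which encodes drebrin, an actin-binding protein of dendritic spines, had the most counts, 560 to 692 a library. Its PSI was 0.231, 0.237 and 0.217 in the controls and 0.331, 0.259 and 0.316 in the others (adjusted p = 0.377). Rbm5, a regulator of splicing, had a mean of 0.920 ± 0.0228 against 0.972 ± 0.0201 (adjusted p = 0.310), and Sfxn3, a mitochondrial carrier, had 0.934 ± 0.0451 against 0.977 ± 0.0112 (adjusted p = 0.357). The groups of these 3 did not overlap. Scyl2, a pseudokinase of vesicle traffic, had the widest gap of means, 0.274 against 0.652, but its controls ran from 0.0969 to 0.578 and overlapped the lowest of the others at 0.456 (adjusted p = 0.336). Rabepk, an effector of Rab9, was lower, at 0.907 ± 0.0396 against 0.789 ± 0.0780, with overlapping groups (adjusted p = 0.367).

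**Figure D4:**
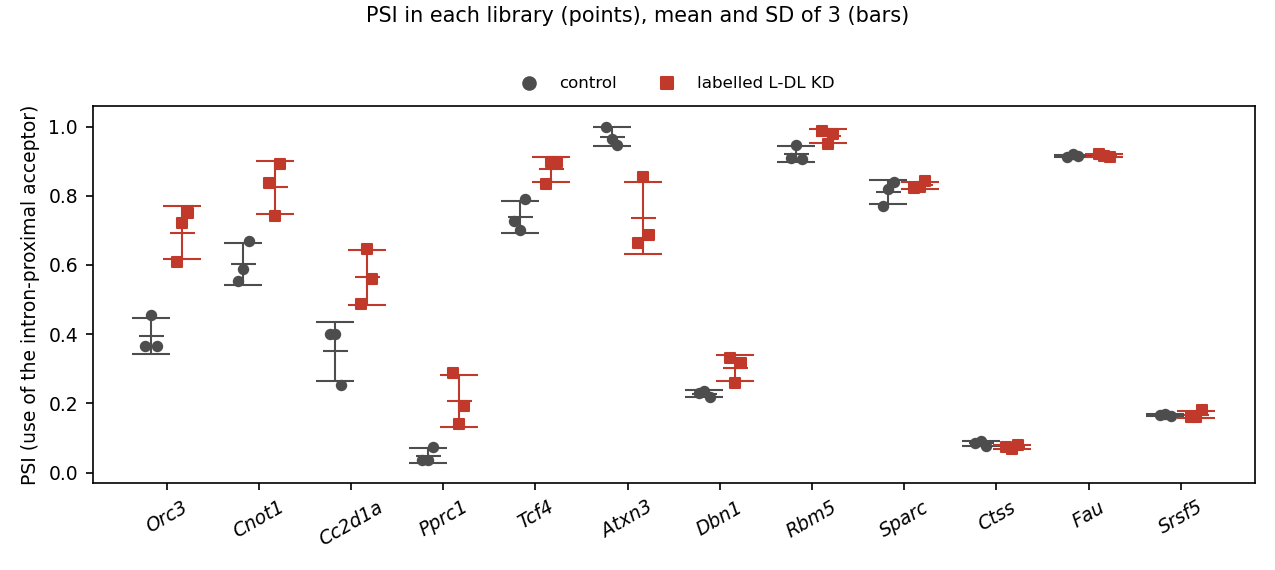
PSI (y axis, use of the intron-proximal acceptor) of 12 tandem acceptor pairs in each of 3 control libraries (circles) and 3 libraries labelled L-DL KD (squares), with the mean and SD. Orc3, Cnot1, Cc2d1a, Pprc1, Tcf4, Dbn1 and Rbm5 lie higher and Atxn3 lower in the second group, while the groups of the deeply read Sparc, Ctss, Fau and Srsf5 overlap.

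The 8 pairs with most counts, 1 per gene, had control SDs from 0.00297 in Srsf5 to 0.0357 in Sparc. Ctss, a lysosomal protease made by microglia, had 1573 to 3488 counts a library and PSI of 0.0869, 0.0907 and 0.0754 against 0.0750, 0.0677 and 0.0792, which overlap. Sparc, a secreted matrix protein, had 0.771, 0.821 and 0.841 against 0.823, 0.826 and 0.842. Its acceptor use overlapped while its gene counts rose by 1.94 ± 0.09 on the log2 scale (adjusted p = 6.45e-05). Fau, a ribosomal protein gene whose pair lies in the 5′ UTR, had 0.915 ± 0.00410 against 0.916 ± 0.00400. Srsf5, an SR protein that regulates splicing, had 0.167 ± 0.00297 against 0.167 ± 0.0106, and Cpne6, a calcium-binding copine, had 0.969 ± 0.00962 against 0.969 ± 0.00806. Means of these 3 pairs differed by less than 0.001 in each case, less than their SDs. Eif4a2, a translation helicase, had 0.235 ± 0.0220 against 0.231 ± 0.0294, and Ly6e, a membrane-anchored antigen, 0.623 ± 0.0275 against 0.652 ± 0.0297, both overlapping. Gnb1, a G protein subunit whose pair lies in a 3′ UTR, was the only one of the 8 whose groups lay apart, at 0.185, 0.176 and 0.178 against 0.213, 0.185 and 0.205 (adjusted p = 0.783). At unrounded values its lowest library labelled L-DL KD lay just above the highest control.

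Sez6l, Ctcf, Traf7 and Itpr1 were among the pairs nearest to equal use with at least 100 counts. Their control means ran from 0.475 to 0.518, and the groups overlapped in all 4. Itpr1, a calcium channel of the endoplasmic reticulum, had 0.479, 0.527 and 0.462 against 0.398, 0.499 and 0.570. Ctcf, which binds chromatin insulators, had 0.518 ± 0.0331 against 0.480 ± 0.0378. Sez6l, a neuronal membrane protein, had 0.477 ± 0.0612 against 0.534 ± 0.0284 while its gene counts fell by 1.13 on the log2 scale (SE 0.12, adjusted p = 0.000431). In Sez6l and Sparc 3 acceptors followed each other 3 nt apart, so that 2 pairs share an acceptor. The other Sez6l pair had PSI of 0.551, 0.524 and 0.658 against 0.591, 0.559 and 0.517, and the other Sparc pair 0.998 to 1 in all 6 libraries.

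Synj1 and Git2 were looked up because the paper names them, for skipped exons, which are another type of event than these acceptors. Ing4 was looked up as a textbook NAGNAG gene, and Clasp1 stood on the same list although the paper does not name it. Synj1, a phosphoinositide phosphatase of synaptic vesicles, had 0.835, 0.805 and 0.716 against 0.678, 0.757 and 0.757. Clasp1, a microtubule plus-end protein, had 0.944 ± 0.0702 against 0.905 ± 0.111 on 12 to 49 counts a library. Ing4, a chromatin reader, had 0.0777, 0.103 and 0.0753 against 0.108, 0.101 and 0.130. Git2, an ARF GTPase-activating protein, had 0.372, 0.708 and 0.317 against 0.538, 0.451 and 0.497, so a single control library set its spread. The groups of all 4 overlapped, and their adjusted p-values ran from 0.770 to 0.977.

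Tandem acceptors occurred in 13 of 91 listed RNA-binding and splicing genes. Of 12 tested pairs there, 1 (Rbm5) had an unadjusted p under 0.05, and the groups lay apart upwards in 2 and downwards in 1. Of all tested events, 13.3% had such a p, 7.6% lay apart upwards and 10.8% downwards. Prpf40b, a U1-associated protein, had 0.326, 0.356 and 0.410 against 0.461, 0.492 and 0.442. Rbm39, a partner of U2AF, was the lower one with 0.944, 0.951 and 0.953 against 0.942, 0.929 and 0.924. Srsf10, an SR protein, overlapped at 0.699, 0.720 and 0.681 against 0.766, 0.741 and 0.688. The median difference of the list was 0.0182.

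Synaptic, channel and cytoskeletal genes held 26 tested pairs in 24 genes, of which 1 (Dbn1) had an unadjusted p under 0.05. The groups lay apart upwards in 4 and downwards in 1. Over all tested events the shares were 13.3% at an unadjusted p under 0.05, 7.6% apart upwards and 10.8% apart downwards. Ppfia2, a liprin of the presynaptic active zone, had 0.648, 0.712 and 0.710 against 0.848, 0.747 and 0.846 (adjusted p = 0.404). Ank3, the ankyrin of the axon initial segment, had 0.836, 0.856 and 0.865 against 0.895, 0.924 and 0.882 (adjusted p = 0.495). Macf1, a linker of actin and microtubules, had the largest difference of the list, 0.372 ± 0.0554 against 0.157 ± 0.166, with overlapping groups at a mean of 27.5 counts. The list's median difference was -0.00288, close to 0.

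Chromatin and transcription genes held 21 tested pairs in 15 genes. Only 1 of these pairs, in Tcf4, had an unadjusted p under 0.05, beside 13.3% of all tested events. The groups lay apart upwards in 3, beside 7.6% of all tested events, and downwards in 0, beside 10.8%. Hdac5, a histone deacetylase, had 0.285, 0.244 and 0.291 against 0.388, 0.318 and 0.367 (adjusted p = 0.718). Ncor1, a corepressor, held 3 pairs with control means of 0.665, 0.556 and 0.212, so use of the first acceptor differed between introns of the same gene. Foxp1, a forkhead factor, also held 3, at 0.648, 0.946 and 0.847. None of these 6 pairs had groups apart.

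Gene counts of the factors that find or use the 3′ splice site were tested next to the pairs. Early recognition rests on U2AF, SF1 and the SF3a and SF3b parts of the U2 snRNP, and the second step on PRPF8, SLU7, CDC40 and others. At an adjusted p under 0.05 (edgeR), 1 of 21 tested early factors rose and 4 fell, beside 15.6% of all 17621 tested genes higher and 15% lower. Sf1, which binds the branch point, fell from 249 ± 2.90 to 192 ± 11.7 CPM (log2 fold change -0.37 ± 0.07, adjusted p = 0.00485), and U2af2, which binds the polypyrimidine tract, from 155 ± 7.36 to 122 ± 3.12 CPM (-0.34 ± 0.07, adjusted p = 0.00628). Zrsr1, whose paralog Zrsr2 may share reads with it, and Rbm17 also fell, and Sf3a2 rose from 35.3 ± 2.63 to 45.4 ± 3.78 CPM. U2af1, which contacts the AG itself, did not pass the test, at 33.3 ± 2.06 and 35.9 ± 1.89 CPM (adjusted p = 0.398). Of 12 second-step factors, Prpf8 rose from 277 ± 15.2 to 324 ± 11.9 CPM (adjusted p = 0.0388), while Cactin and Dhx8 fell. The 8 calls in both lists became 5, 5 and 4 without control replicates 1, 2 and 3. Calls over all genes also fell in these fits, from 2743 higher and 2636 lower to 1848 and 1676, 1795 and 1746, and 1770 and 1728.

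Genes that host a tested pair fell more often than they rose. Of 439 tested, 63 (14.4%) were higher and 108 (24.6%) lower, against the shares over all genes given above. Library sizes without TMM gave 73 and 98, beside 3052 higher and 2392 lower of all 17621 tested genes. The hosts had to pass the filter on junction counts, whose part in these shares was not tested. The change in PSI and the log2 fold change of the host gene had a Pearson r of 0.119 across 476 pairs, a description over pairs of the same libraries. Markers of cell types moved with the groups. All 10 microglia markers rose, with summed levels of 1365 to 1740 CPM in the controls and 2950 to 3849 CPM in the others, and 3 of 4 endothelial markers rose. Of 8 neuron markers 7 fell and 1 rose (4948 to 5174 against 3029 to 3738 CPM), and 3 of 6 CA1 and dentate markers and 3 of 6 astrocyte markers fell, while 1 astrocyte and 1 of 6 oligodendrocyte markers rose. None of 4 choroid plexus markers was called, at 416 to 4407 and 27.2 to 5089 CPM, and no marker of any list was at 0 in all libraries. In bulk tissue, fewer cells of a type and less RNA per cell cannot be told apart, and the part of these shifts in the acceptor use above was not tested.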

How the data were processed

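The authors isolated total RNA from hippocampus, enriched mRNA with oligo(dT), and sequenced read pairs that they aligned to GRCm38. The submitters' processing notes name Bowtie 1.1.2, HISAT2 2.1.0 and HTSeq 0.6.1 with no role, and strand use in counting is not given in the sources used here. For 6 libraries the authors deposited unnormalized counts of reads on each Ensembl gene. They also deposited the junction output of rMATS for 5 event types, with raw junction counts of the inclusion and skipping forms in each library. That table further holds the authors' PSI, PSI differences, p-values and FDR, which were not used.

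The junction table names only sample 1 and sample 2 and gives no replicate numbers, and sample 1 was taken as L-DL KD. As a check, the ratio of junction totals and the gene log2 fold change had a Spearman rho of 0.932 over 5630 genes. PSI was recomputed in each library as the inclusion count over 151 nt divided by the sum of that and the skipping count over 149 nt, the effective lengths of all 705 events. Junction counts of all event types were tested together with edgeR (version 4.0.16, glmQLFit and glmQLFTest) on 12 columns, with a library effect, an inclusion effect and its change between groups. Events needed a mean of at least 20 counts a library and at least 1 of each form, and p-values were adjusted by Benjamini-Hochberg over 18829 events. Genes that reached 10 counts in 3 or more libraries were tested with edgeR after TMM scaling. DESeq2 (version 1.42.0) and limma (version 3.58.1, pseudocount 0.5), other filters, library size scaling, a replicate block and fits that dropped 1 library were alternatives. Both models were tested on simulated data. R 4.3.3 and Python 3.11.15 (pandas 2.3.3, scipy 1.17.1, matplotlib 3.10.9) were used.

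Named pairs were those past the adjusted threshold, the 5 largest rises and falls in PSI among events with an unadjusted p under 0.05 and separate groups, the 8 with most counts, the 5 nearest a control PSI of 0.5 with at least 100 counts, and listed genes. Of the 5 nearest 0.5, 1 is not reported here. Others are said to be chosen after their values were seen. Members and lists were chosen with earlier results of these data known. Gene models and sequences came from GENCODE M21 on GRCm38. Intervals and SDs cover these libraries only, and junction reads without molecular identifiers are not independent molecules.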

Additional observations from a re-analysis of the deposited data

How the results depend on the processing

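No tandem acceptor event passed the adjusted threshold under any alternative run for the splicing test: 1 event per pair, a mean of at least 50 counts, no filter, alternative 3′ splice sites alone, DESeq2, limma, or without each library. In several of these fits hardly any event of any type passed. All events gave 0 calls with limma and without control value 3, and 3, 5 and 3 without control values 1 and 2 and L-DL KD value 2. A 0 for the tandem acceptors says little in those fits. The 11 events at an unadjusted p under 0.05 became 7 with a mean of at least 50 counts, where 326 events were tested. They became 16 among alternative 3′ splice sites alone, 23 with limma, and 8 to 14 without a library. As shares these were 2.15%, 3.33%, 4.78% and 1.66% to 2.90%. Over all events tested in each fit the shares were 14.5%, 9%, 13.1% and 10.4% to 12.4%. The cause of the limma count was not tested. The median PSI difference of 0.00828 was 0.0163 from summed counts, where genes with many reads weigh most, and 0.00820 to 0.0135 without a library. For single named events, 546 values under alternatives differed from the reported one by less than the error and 7 moved, while values near 0 changed sign in places, as in Eif4a2. The 8 called 3′ splice site factor genes were 4 to 11 without a library, and the 171 called host genes 115 to 222. Calls over all genes moved as well, from 2743 higher and 2636 lower. They ran from 1770 and 1728 without control replicate 3 to 3236 and 3241 without L-DL KD replicate 1.

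No paired analysis of the splicing counts was possible because their table carries no replicate numbers. In the gene counts the deviations of same-numbered libraries correlated at 0.0626, 0.157 and -0.14, so the libraries share only a number. With the replicate number as a block, 149 host genes and 6 factor genes were called, beside 2311 higher and 2324 lower of all 17621 tested genes. At a median of 73.8 counts, the counting error of PSI in a single control library had a median of 0.0456. The median difference of 0.0327 is between means of 3 libraries, so it cannot be set directly against that error. The part of depth in the lack of calls was not tested.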

Other observations

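Of the 14 pairs whose libraries labelled L-DL KD all lay below the controls, Rbm3, a cold-inducible RNA-binding protein, had the most counts (a mean of 565) and PSI of 0.431, 0.474 and 0.433 against 0.423, 0.390 and 0.391 (adjusted p = 0.711). Among the 35 pairs that lay above, Nav2, a neuron navigator protein, had PSI of 0.530, 0.535 and 0.413 against 0.840, 0.703 and 0.731 at a mean of 20.3 counts (adjusted p = 0.381), and Dock9, a Cdc42 exchange factor, had 0.401, 0.438 and 0.395 against 0.475, 0.552 and 0.664 at 106 counts (adjusted p = 0.451). Trim47, an E3 ubiquitin ligase, had 0.258, 0.0898 and 0.0898 against 0.348, 0.364 and 0.337 (adjusted p = 0.414). These 4 were chosen after their values were seen, and none passed the adjusted threshold.

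Ing4 was listed at 0.661 to 1.54 CPM in the gene counts, although the tandem pair alone had 73 to 156 junction counts a library. The 2 tables thus differ widely in the level they give this gene, and the reason was not tested.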
